A study of Mus musculus with 9 samples.

Results

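The 52 genes described here encode the proteins that copy DNA in S phase, together with those that license origins, supply nucleotides, time the entry into S phase, package the copied DNA and watch over the forks. They were given as gene symbols and matched to the Ensembl identifiers of the deposited count table. All 52 were found among its 53700 entries, and all 52 were among the 18415 genes that passed the filter on low counts, so no gene was lost before testing. The symbols lie on 15 chromosomes, and the lowest count of any of them in any library was 44 reads, for Fen1 in a Val+PA library.

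In textbook outline, the origin recognition complex, Cdc6 and Cdt1 load the ring-shaped MCM2-7 helicase on DNA in G1. Cyclin E with its kinase, and the kinase Cdc7, then turn the ring into an active helicase with Cdc45 and GINS, after which primase and the polymerases α, δ and ε copy the strands on the sliding clamp PCNA. Most of these genes are transcribed in late G1 through E2F factors, and myoblasts stop transcribing them when they leave the cell cycle to differentiate.

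C2C12 is a mouse myoblast line that divides in serum and forms myotubes when serum is withdrawn. Wells of all 3 groups were first starved for 12 h in OPTI-MEM, a medium meant for reduced serum, and Control wells were collected at that point. Valine wells then went on for 36 h with 0.45 mM valine, a branched-chain amino acid. In Val+PA the same 0.45 mM valine lasted 24 h, and palmitic acid, a saturated fatty acid, lasted 12 h at 75 µM. The labels do not say whether these 24 h and 12 h followed each other or overlapped. Each group was 1 plate of 6 wells, 3 of which were picked at random for sequencing, so a plate and its treatment cannot be told apart, and each p-value rests only on the variation between wells of the same plate. Both treated groups were also collected later than Control, and no untreated well of their time was analysed here, so treatment and time in culture cannot be told apart in either comparison with Control.

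Promoter windows of 5 of the genes are shown to show what a match to the E2F site looks like: 4 are the genes with the largest difference between Valine and Control among those with a match, and Mcm10 is the like gene among those without one. Windows were taken from RefSeq on GRCm38.p6, run 5′ to 3′ on the gene's strand, and hold 250 bases before the annotated start followed by 50 after it. Capitals mark matches to the E2F letters TTTCCCGC, TTTCGCGC, TTTGCCGC or TTTGGCGC on either strand. The windows were chr11:98907901-98908200 on the plus strand for Cdc6, chr1:20820263-20820562 on the minus strand for Mcm3, chr8:75109259-75109558 on the plus strand for Mcm5, chr8:122567765-122568064 on the plus strand for Cdt1, and chr2:5012742-5013041 on the minus strand for Mcm10, which held no match. The Mcm10 window ends in tttggcg, which is TTTGGCGC without its last letter, and bases beyond its edge were not searched.
Cdc6: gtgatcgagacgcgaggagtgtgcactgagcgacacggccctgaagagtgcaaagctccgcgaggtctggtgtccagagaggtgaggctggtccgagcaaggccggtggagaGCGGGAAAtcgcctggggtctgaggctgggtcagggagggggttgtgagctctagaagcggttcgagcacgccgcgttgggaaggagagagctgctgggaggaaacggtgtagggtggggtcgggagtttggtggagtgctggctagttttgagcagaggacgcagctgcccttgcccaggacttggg
Mcm3: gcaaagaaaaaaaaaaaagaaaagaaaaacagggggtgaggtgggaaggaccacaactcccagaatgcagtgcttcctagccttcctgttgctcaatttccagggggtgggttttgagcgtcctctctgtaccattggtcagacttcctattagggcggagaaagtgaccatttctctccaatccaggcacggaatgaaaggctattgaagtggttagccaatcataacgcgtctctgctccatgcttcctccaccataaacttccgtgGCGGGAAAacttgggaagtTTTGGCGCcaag
Mcm5: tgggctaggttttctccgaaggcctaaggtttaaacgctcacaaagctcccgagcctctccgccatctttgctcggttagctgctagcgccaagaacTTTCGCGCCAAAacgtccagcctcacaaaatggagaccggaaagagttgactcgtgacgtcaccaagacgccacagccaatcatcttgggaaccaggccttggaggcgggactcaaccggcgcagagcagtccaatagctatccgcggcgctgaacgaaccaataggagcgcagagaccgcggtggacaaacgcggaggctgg
Cdt1: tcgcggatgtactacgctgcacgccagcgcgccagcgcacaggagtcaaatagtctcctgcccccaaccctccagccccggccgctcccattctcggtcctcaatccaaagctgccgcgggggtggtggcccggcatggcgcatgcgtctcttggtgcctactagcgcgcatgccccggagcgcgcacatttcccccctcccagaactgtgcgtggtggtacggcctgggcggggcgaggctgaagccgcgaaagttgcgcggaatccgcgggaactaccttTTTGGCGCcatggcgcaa
Mcm10: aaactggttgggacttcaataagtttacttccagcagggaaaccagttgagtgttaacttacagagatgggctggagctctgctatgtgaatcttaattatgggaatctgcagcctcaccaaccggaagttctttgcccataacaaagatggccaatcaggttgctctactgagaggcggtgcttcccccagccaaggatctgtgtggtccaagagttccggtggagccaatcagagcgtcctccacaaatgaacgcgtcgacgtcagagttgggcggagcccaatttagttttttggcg

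The RefSeq starts of Mcm3, Cdt1 and Mcm10 are also the gene starts in the GENCODE annotation, while that of Mcm5 lies upstream of it. The RefSeq start of Cdc6 lies downstream of its GENCODE start, and the whole Cdc6 window, match included, lies inside the gene as GENCODE draws it. The Cdc6 match, GCGGGAAA, began 138 bases before the RefSeq start. In Mcm5 the matches TTTCGCGC and GCGCCAAA began 153 and 149 bases before the RefSeq start and overlapped each other. The matches of Mcm3 and Cdt1 lay after the start, GCGGGAAA and TTTGGCGC at bases 20 and 39 of Mcm3 and TTTGGCGC at base 33 of Cdt1, counting the start as base 1. RefSeq windows were matched by symbol for 42 of the 52 genes, and 17 of these, 40.5%, held at least 1 E2F match, against 2.32% of all 27025 windows and 3.71% of the 11230 windows of tested genes outside the 52. A CCAAT box, searched as CCAAT on both strands, was found in 26 of 42 (61.9%) against 37.9% of all windows and 38.8% of those of tested genes outside the 52. The cell cycle homology region, searched as TTTGAA on both strands, was found in 5 of 42 (11.9%), a share below the 18.1% of all windows but close to the 12.3% of tested genes outside the 52. In a shorter window, from 100 bases before the start to 50 after, it was found in 9.52% of the 42, above the 8.08% of all windows and the 4.49% of tested genes outside the 52. The log2 fold change between Valine and Control had a median of -1.29 in the 17 genes with an E2F match and -1.41 in the 25 without one. A match is only a run of letters, and a window without one says nothing about binding by the factor.

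Library totals ran from 26750226 to 35976589 counts, so 1 count was worth 0.0271 to 0.0403 CPM, the count relative to the TMM-scaled size of its library. Myoblast markers were all detected, with summed levels of 2144 to 2461 CPM in Control, 3426 to 3624 in Valine and 3289 to 5263 in Val+PA. Of 8 markers of differentiating myocytes, 7 rose and Tnnt2 fell in both treated groups against Control. Of all tested genes, 20.8% were called higher in Valine and 20.4% in Val+PA. The median log2 fold change of the 8 markers was 3.48 in Valine and 3.22 in Val+PA. Their sum was 451 to 511 CPM in Control, 989 to 1008 in Valine and 589 to 725 in Val+PA. The summed fibroblast markers, Pdgfra, Dcn, Lum, Col1a1 and Ly6a, were also higher, at 369 to 510 CPM in Control, 1640 to 1742 in Valine and 1546 to 1818 in Val+PA. Summed endothelial and immune markers stayed at or under 3.49 and 6.87 CPM in every library, and the adipocyte genes Adipoq and Lep had no count in any. Control 3 and Val+PA 2 stood apart from their groups. The chi-square of counts per gene was 108 and 118 for Control 3 with the other Control libraries, which gave 11 with each other, and 90.1 and 51.4 for Val+PA 2, against 20.1 between Val+PA 1 and 3. Summed mitochondrially encoded RNA was 3410 CPM in Control 3 and 1863 in Val+PA 2, the lowest values of all 9 libraries.

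Nearly all of the 52 genes were lower in Valine than in Control. Summed over the 52 genes, the level was 5188, 5296 and 5344 CPM in the Control libraries, 1834, 1999 and 2021 CPM in Valine, and 1580, 1702 and 1607 CPM in Val+PA. The 3 groups did not overlap, with Valine at 37.0% and Val+PA at 30.9% of the Control mean. An exact two-sided permutation test over the libraries gave p = 0.1 for each of these comparisons, the smallest that 3 against 3 allows. Groups without overlap always give this value, and the 52 genes were chosen with earlier results of these data known. No conclusion is drawn from it. In Valine, 51 of 52 genes fell and none rose, against 21.1% of all tested genes called lower and 20.8% called higher (adjusted p below 0.05 over all tested genes, from the quasi-likelihood fit of edgeR). Every one of the 52 had all its Valine libraries below all its Control libraries, which held for 29.2% of all genes, and none was higher in this way, which held for 29.7%. All 52 log2 fold changes were below 0, beside 50.3% of all genes. The median log2 fold change was -1.36, equal to 38.9% of the Control level, beside -0.0049 over all genes, and single genes ran from -2.90 for Cdc6 to -0.14 for Gins4. A log2 fold change below -1 was found in 43 genes (82.7%), beside 8.13% of all genes.

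In Val+PA, compared with the same Control libraries, 50 of 52 genes fell and none rose, against 18.8% of all genes called lower and 20.4% called higher. Groups did not overlap for 51 of the 52, beside 22.1% of all genes that were lower in this way, and E2f1 was the exception. None of the 52 was higher without overlap, beside 23.5% of all genes, and all 52 log2 fold changes were below 0, beside 50.1%. The median log2 fold change was -1.64, or 32.1% of Control, beside -0.0018 over all genes, with a range from -3.48 for Ccne2 to -0.24 for Gins4. A log2 fold change below -1 was reached by 45 genes (86.5%), beside 7.66% of all genes. In RNA from whole wells, a smaller share of cells in S phase and less RNA in each such cell cannot be told apart. Markers of mitosis moved with these genes, as 7 of 8 fell in Valine, beside 21.1% of all genes, and 8 of 8 in Val+PA, beside 18.8%, with sums of 1806 to 2041 CPM in Control, 1215 to 1260 in Valine and 919 to 1061 in Val+PA. The part in these results of mitotic, myocyte and fibroblast marker levels, which all moved with the groups, was not tested.

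**Figure D1:**
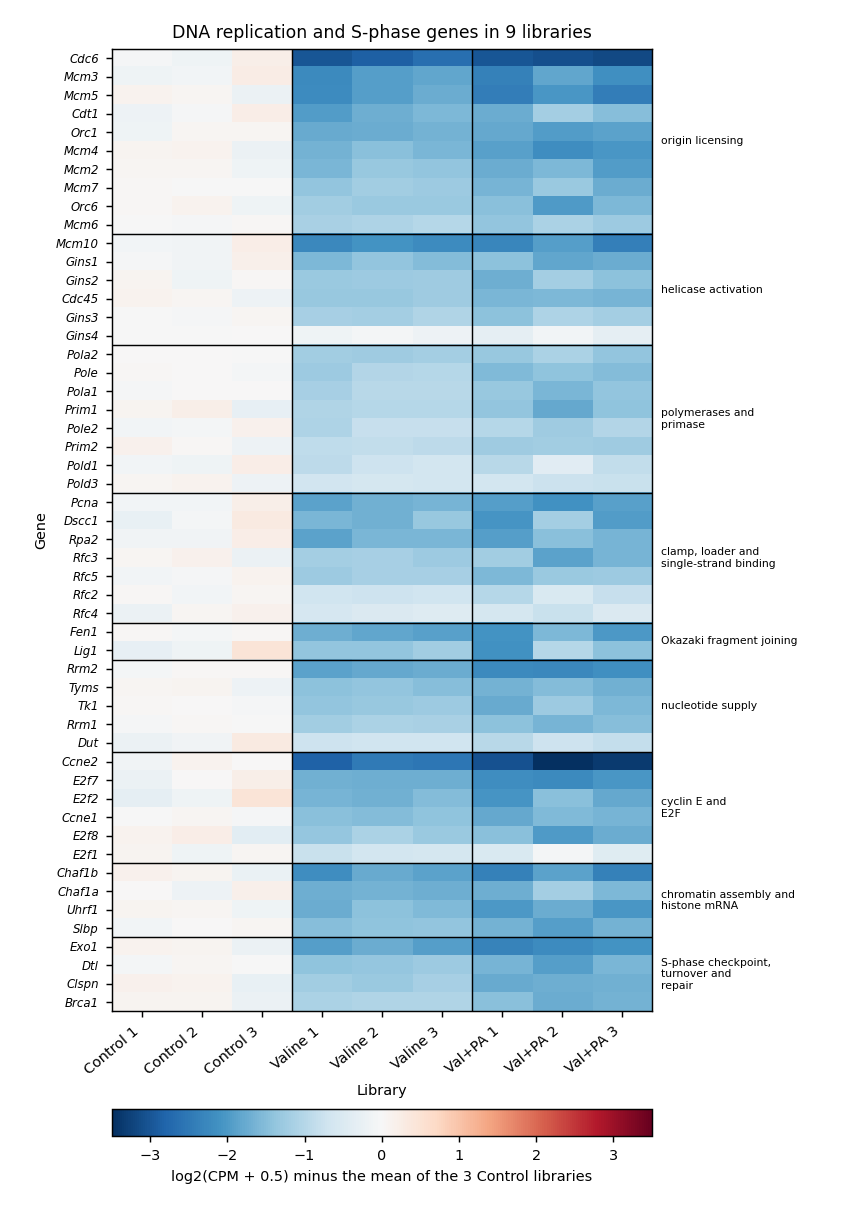
Level of each of the 52 genes (rows, by role) in each of the 9 libraries (columns), as log2(CPM + 0.5) minus the mean of the 3 Control libraries; blue is lower than Control. Every gene was lower in all Valine libraries than in all Control libraries. Gins4 is the palest row in both treated groups, followed by Rfc4 in Valine and by E2f1 in Val+PA.

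Origin licensing held the largest fall in Valine. Cdc6 (ENSMUSG00000017499, GRCm38 chr11:98907801-98923940, plus strand), the ATPase that helps load the helicase, was at 59, 55.3 and 70.0 CPM in Control, 7.23, 7.94 and 9.47 under valine alone and 7.17, 6.76 and 6.46 in Val+PA. The treated libraries lay far below the Control range, and all Val+PA libraries were just below all Valine libraries. Its log2 fold change was -2.90 (SE 0.14) in Valine, 7.48-fold lower (adjusted p = 6.97e-08), and -3.18 (SE 0.14) in Val+PA, 9.03-fold lower (adjusted p = 7.20e-08). Cdt1, the loading partner of Cdc6, was at 26.3, 29 and 35.1 CPM in Control, 7.28, 8.87 and 9.7 in the Valine group and 8.6, 12.8 and 10.2 in Val+PA. Its log2 fold changes were -1.80 (SE 0.18) and -1.51 (SE 0.17). Orc1 and Orc6, subunits of the origin recognition complex, fell, with log2 fold changes of -1.78 and -1.29 in Valine and of -1.95 and -1.69 in Val+PA. Of the Orc6 exon bases, 6.93% are shared with Vps35 on the opposite strand, which had 137554 counts beside 9689 for Orc6. The strand setting of the counting is not given, so the values of Orc6 are uncertain.

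All 6 subunits of the MCM2-7 ring fell in both treated groups, but not to the same extent. Mcm6, the subunit with the smallest change, was at 289, 285 and 301 CPM in Control, 133, 138 and 145 in Valine wells and 111, 135 and 120.2 in Val+PA wells, with log2 fold changes of -1.07 (SE 0.10) and -1.26 (SE 0.10). Mcm4 was at 164, 169 and 133 CPM in Control, 49.1, 55.4 and 50.8 under valine alone and 40.8, 34 and 37.5 in Val+PA. Its groups stood in 3 separate steps, with log2 fold changes against Control of -1.58 (SE 0.12) and -2.05 (SE 0.12). Log2 fold changes in Valine were -2.00 (SE 0.17) for Mcm3, -1.97 (SE 0.15) for Mcm5, -1.45 (SE 0.13) for Mcm2 and -1.29 (SE 0.12) for Mcm7. In Val+PA the same genes gave -2.11, -2.31, -1.75 and -1.55. To compare subunits with each other, the deposited signal was used, which is the count divided by exon length and by a library factor. Summed over the 6 subunits, this signal was 563 to 609 in Control, 195 to 221 in Valine and 165 to 199 in Val+PA. The ratio of Mcm6 to Mcm5 per length was 1.34 to 1.73 in Control, 2.45 to 3.08 in Valine and 2.82 to 3.29 in Val+PA (exact two-sided permutation p = 0.1 for each treated group against Control, the smallest possible with n = 3). This pair was chosen after its values were seen.

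**Figure D2:**
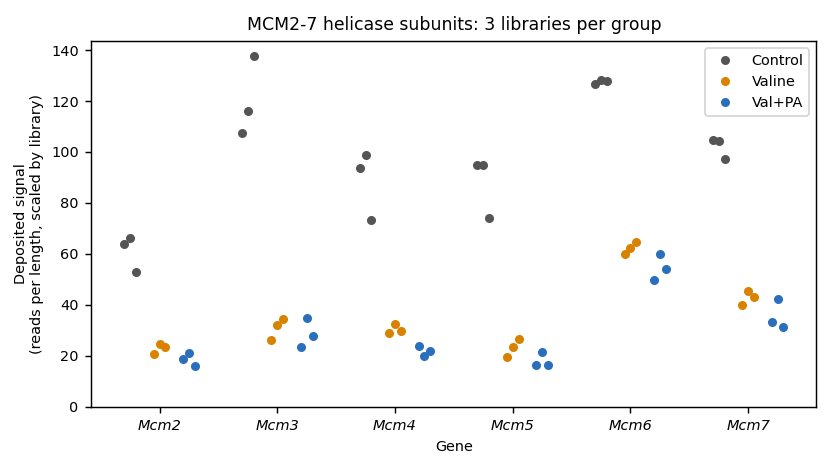
Deposited signal (reads per exon length, scaled per library; vertical axis) of the 6 MCM2-7 subunits (horizontal axis), 1 point for each of 3 libraries per group. Control points lie above all treated points for each subunit, and Mcm6 is the highest subunit in every treated library.

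Among genes that activate the loaded helicase, Mcm10 and Gins4 marked the extremes. Mcm10, a scaffold that helps the ring open and move, was at 79.3, 77.4 and 101 CPM in Control, 17.3, 19.7 and 18.2 in the Valine group and 16.9, 22.2 and 15.8 in Val+PA. Control 3 was the highest library, and the treated groups overlapped each other. Its log2 fold changes were -2.22 (SE 0.15, adjusted p = 7.33e-07) and -2.23 (SE 0.15, adjusted p = 6.53e-07). Gins4, which encodes the Sld5 subunit of the 4-part GINS complex, was at 24.8, 25 and 25.4 CPM in Control, 22.5, 23.9 and 22.1 in Valine wells and 20.2, 23.4 and 20.1 in Val+PA wells. Treated libraries lay below Control without overlap, by a small margin, and neither difference passed the test, with log2 fold changes of -0.14 (SE 0.11, adjusted p = 0.335) and -0.24 (SE 0.11, adjusted p = 0.0947). Without Val+PA 2, the second of these became -0.32 and passed (adjusted p = 0.0163). The other 3 GINS genes, Gins1, Gins2 and Gins3, fell, with log2 fold changes of -1.58, -1.33 and -1.16 in Valine and of -1.76, -1.49 and -1.26 in Val+PA. Per length, Gins4 was 1.94 to 2.22 times the mean of the other 3 in Control, 4.48 to 4.98 times in Valine and 4.63 to 5.10 times in Val+PA, a ratio chosen after its values were seen (exact permutation p = 0.1 against Control for each). The mean of the other 3 includes Gins2, which shares 67.3% of its exon bases with Gse1 on the opposite strand. With the strand setting of the counting not given, this ratio is uncertain. Cdc45, which travels with the ring and GINS, fell, with log2 fold changes of -1.32 in Valine and -1.62 in Val+PA.

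The polymerase and primase genes fell least as a role, with median log2 fold changes of -0.98 in Valine and -1.27 in Val+PA over 8 genes, all of which passed the test in both. Pola2, the accessory subunit of the priming polymerase α, was at 82.6, 82.4 and 80.8 CPM in Control, 35.1, 34.5 and 35.6 under valine alone and 32.3, 37.7 and 31.4 in Val+PA, and had the largest change of the role in Valine at -1.22 (SE 0.10). Pold3, an accessory subunit of the lagging-strand polymerase δ, was at 50.5, 52.3 and 42.6 CPM in Control, 29.9, 31.3 and 30.9 in the Valine group and 30.6, 28.4 and 28.2 in Val+PA, and had the smallest at -0.66 (SE 0.11). For both genes the 2 treated groups overlapped each other and not Control. Catalytic subunits gave log2 fold changes in Valine of -1.05 (SE 0.11) for Pola1, -0.78 (SE 0.16) for Pold1 and -1.11 (SE 0.11) for Pole. In Val+PA these were -1.45, -0.74 and -1.52. The primase subunits Prim1 and Prim2 gave log2 fold changes of -1.04 and -0.92 in Valine and of -1.55 and -1.26 in Val+PA, and Pole2, the partner of Pole, gave -0.92 and -1.10.

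Pcna encodes the sliding clamp that holds polymerases on DNA. Its levels were 382, 379 and 466 CPM in Control, 111, 126 and 131 in Valine wells and 106, 94 and 108 in Val+PA wells, with Control 3 the highest. The log2 fold changes were -1.74 (SE 0.12, adjusted p = 6.38e-07) and -1.99 (SE 0.12, adjusted p = 2.51e-07). Pcna-ps2, a processed copy, had 24181 counts over all libraries beside 59183 for Pcna, so reads may be split between them and the level of Pcna is uncertain. Rfc4, a small subunit of the loader that opens the clamp, changed least of the 7 genes of this role, at 26.4, 32 and 33.6 CPM in Control, 20.3, 21.5 and 22 under valine alone and 19.7, 17.5 and 21.3 in Val+PA. Even so its treated libraries stayed below Control, with log2 fold changes of -0.53 (SE 0.12, adjusted p = 0.00498) and -0.65 (SE 0.13, adjusted p = 0.00138). The other loader genes gave log2 fold changes of -0.72, -1.25 and -1.21 in Valine for Rfc2, Rfc3 and Rfc5, and -0.78, -1.62 and -1.39 in Val+PA. Of the Rfc4 exon bases, 12.7% are shared with Eif4a2 on the opposite strand, which had 113663 counts beside 6910 for Rfc4. Rfc5 shares 10.7% with Wsb2, also on the opposite strand, which had 72586 counts beside 9858. With the strand setting of the counting not given, the values of Rfc4 and Rfc5 are uncertain. Dscc1, of the loader form that acts in sister chromatid cohesion, was the lowest of the 52 genes per length in Control, with a mean signal of 3.36, and fell, with log2 fold changes of -1.74 in Valine and -1.96 in Val+PA. Rpa2, of the complex that coats single-stranded DNA, fell, with log2 fold changes of -1.70 in Valine and -1.68 in Val+PA.

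Both genes of Okazaki fragment joining fell. Fen1, the nuclease that trims flaps between fragments, was at 7.21, 6.65 and 7.17 CPM in Control, 1.79, 1.63 and 1.52 in the Valine group and 1.28, 2.02 and 1.36 in Val+PA, and its log2 fold changes were -2.08 (SE 0.19) and -2.18 (SE 0.19). Lig1, the ligase that seals the nick, was at 16.9, 18.8 and 28.8 CPM in Control, 7.8, 7.68 and 8.68 in Valine wells and 4.45, 10.2 and 7.42 in Val+PA wells, and gave -1.41 (SE 0.27) and -1.55 (SE 0.27). Control 3 was well above the other Control libraries for Lig1, and Val+PA 1 and 2 were the ends of the treated range, and its SE of 0.27 was among the largest of the 52. Of the Fen1 exon bases, 78.8% are shared with Gm10143 on the opposite strand. Gins2 shares 67.3% with Gse1 and Chaf1a 52.5% with Ubxn6, also on opposite strands. The libraries were strand-specific per the labels, but the strand setting of the counting is not given in the sources used here, so the values of these 3 genes are uncertain.

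Nucleotide supply was led by Rrm2, the small subunit of ribonucleotide reductase, which makes deoxyribonucleotides in S phase. Rrm2 had the highest level per length of the 52 genes in Control, with a mean deposited signal of 553, ahead of Pcna at 347. In CPM it was at 715, 767 and 767 in Control, 204, 215 and 224 under valine alone and 161, 158 and 168 in Val+PA. The 3 groups were tight and formed separate steps, with log2 fold changes against Control of -1.81 (SE 0.09, adjusted p = 7.82e-08) and -2.21 (SE 0.09, adjusted p = 3.95e-08). Rrm1, the large subunit, was at 383, 402 and 388 CPM in Control, 167, 180.4 and 179 in the Valine group and 143, 127 and 138 in Val+PA, with -1.16 (SE 0.09) and -1.52 (SE 0.09). Dut, the enzyme that keeps uracil out of DNA by destroying dUTP, changed least, at 62.6, 66.6 and 90.7 CPM in Control, 43.3, 44.5 and 44.1 in Valine wells and 36.8, 43.4 and 40.3 in Val+PA wells. Control 3 was the highest for Dut too, and the log2 fold changes were -0.74 (SE 0.14) and -0.87 (SE 0.14). Tyms, which makes thymidylate, and Tk1, which salvages thymidine, fell, with log2 fold changes of -1.46 and -1.34 in Valine and of -1.64 and -1.54 in Val+PA.

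Rrm2b, outside the 52, encodes the small reductase subunit that serves cells outside S phase, and it went the other way. It was at 34.4, 41.7 and 30.6 CPM in Control, 61.5, 62.8 and 64.8 under valine alone and 60.8, 38.6 and 49.6 in Val+PA, and rose by 0.82 (SE 0.16, adjusted p = 0.00146) and 0.48 (SE 0.16, adjusted p = 0.0314) on the log2 scale. Per length, Rrm2 exceeded Rrm2b by a factor of 60.5 to 82.7 in Control, 10.9 to 11.4 in Valine and 8.72 to 13.5 in Val+PA, a ratio chosen after its values were seen (exact permutation p = 0.1 for each treated group against Control).

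**Figure D3:**
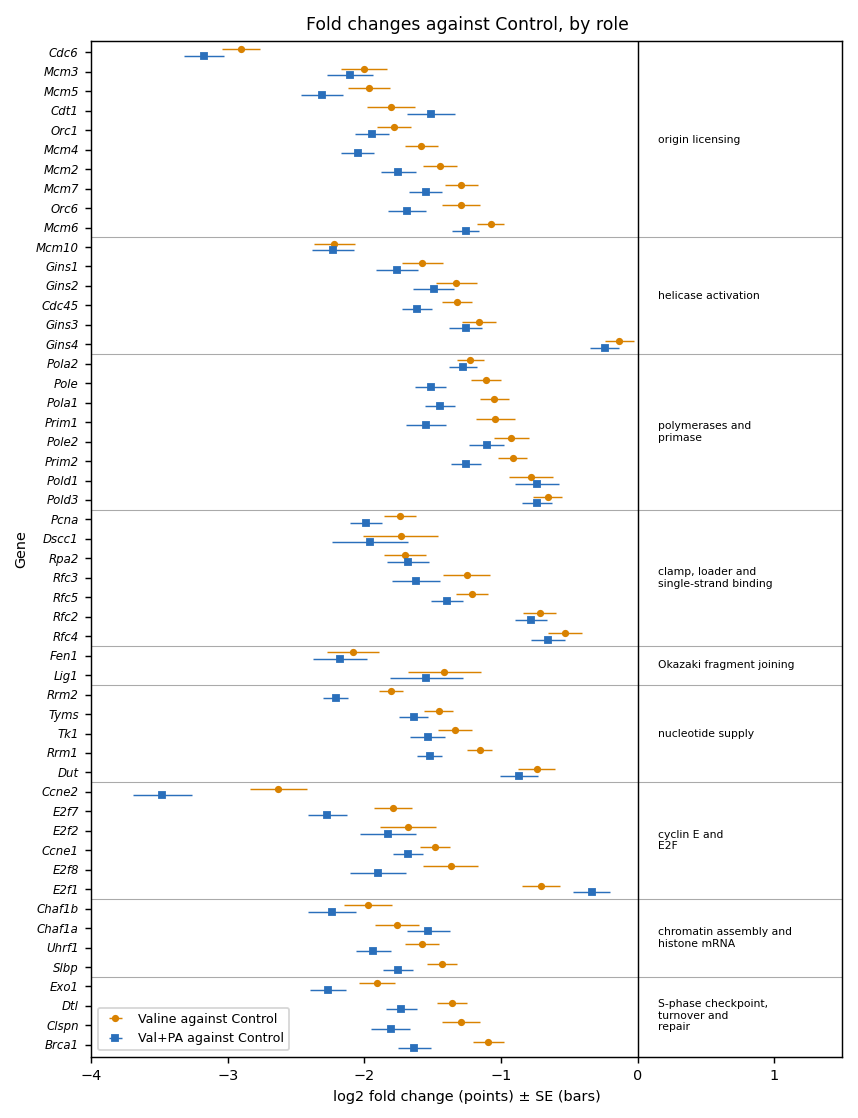
Log2 fold change against Control (horizontal axis, points) with its SE (bars) of each of the 52 genes (vertical axis, by role), in Valine (circles) and Val+PA (squares), which share the Control libraries. Points run from -3.48 for Ccne2 in Val+PA to -0.14 for Gins4 in Valine. Gins4 lies nearest 0 in both groups, followed by Rfc4 in Valine and by E2f1 in Val+PA.

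Cyclin E and the E2F factors time entry into S phase. Ccne2 (ENSMUSG00000028212, GRCm38 chr4:11191351-11204779, plus strand), 1 of 2 cyclins E that activate Cdk2, was at 87.6, 105 and 96.8 CPM in Control, 13.2, 17 and 16.4 in the Valine group and 11.3, 5.54 and 9.03 in Val+PA. The groups did not overlap, and Val+PA 2 was the lowest library. Its log2 fold changes were -2.63 (SE 0.21, adjusted p = 1.94e-06) in Valine and -3.48 (SE 0.22, adjusted p = 3.83e-07) in Val+PA, where it was 11.2-fold lower. Ccne1, the other cyclin E, was at 55.9, 59.6 and 55.1 CPM in Control, 20.4, 19.6 and 21 in Valine wells and 16, 19.3 and 17.9 in Val+PA wells, with smaller changes of -1.48 (SE 0.11) and -1.68 (SE 0.11). Per length, Ccne2 was 1.19 to 1.34 times Ccne1 in Control, 0.494 to 0.661 times in Valine and 0.219 to 0.538 times in Val+PA, so Ccne2 was the higher of the pair in every Control library and the lower in every treated one. On the log2 scale the Ccne2 to Ccne1 ratio of CPM differed from Control by -1.15 in Valine and -1.85 in Val+PA (exact two-sided permutation p = 0.1 each, the smallest possible), while Val+PA differed from Valine by -0.70 (exact permutation p = 0.2). Of the Ccne2 exon bases, 17.4% are shared with Ints8 on the opposite strand, which had 37475 counts beside 11090 for Ccne2. With the strand setting of the counting not given, the values of Ccne2 and its ratio to Ccne1 are uncertain.

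E2f1, an activating E2F, was at 31, 26.4 and 30.4 CPM in Control, 16.8, 18.3 and 18.8 under valine alone and 19.9, 27.9 and 21.8 in Val+PA. Valine lay below Control, while Val+PA 2 lay inside the Control range and all Val+PA libraries lay above all Valine libraries. E2f1 fell in Valine, with a log2 fold change of -0.70 (SE 0.14, adjusted p = 0.00161), and in Val+PA its value of -0.34 (SE 0.14) did not pass (adjusted p = 0.0722). Without Val+PA 2 that value was -0.49 and passed (adjusted p = 0.00456). E2f7 and E2f8, atypical members that repress transcription, fell further. E2f7 was at 18.4, 21.3 and 24.4 CPM in Control, 6.22, 6.19 and 6.1 in the Valine group and 4.32, 4.13 and 4.82 in Val+PA, with log2 fold changes of -1.79 (SE 0.14) and -2.27 (SE 0.14), and E2f8 gave -1.37 (SE 0.20) and -1.90 (SE 0.21). E2f2, another activator, fell, with log2 fold changes of -1.68 in Valine and -1.83 in Val+PA. The ratio of E2f1 to E2f7 per length was 3.54 to 4.82 in Control, 7.70 to 8.80 in Valine and 12.9 to 19.3 in Val+PA. These 3 ranges did not overlap, and the exact two-sided permutation p was 0.1 for each of the 3 comparisons, the smallest possible with n = 3, for a pair chosen after its values were seen.

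**Figure D4:**
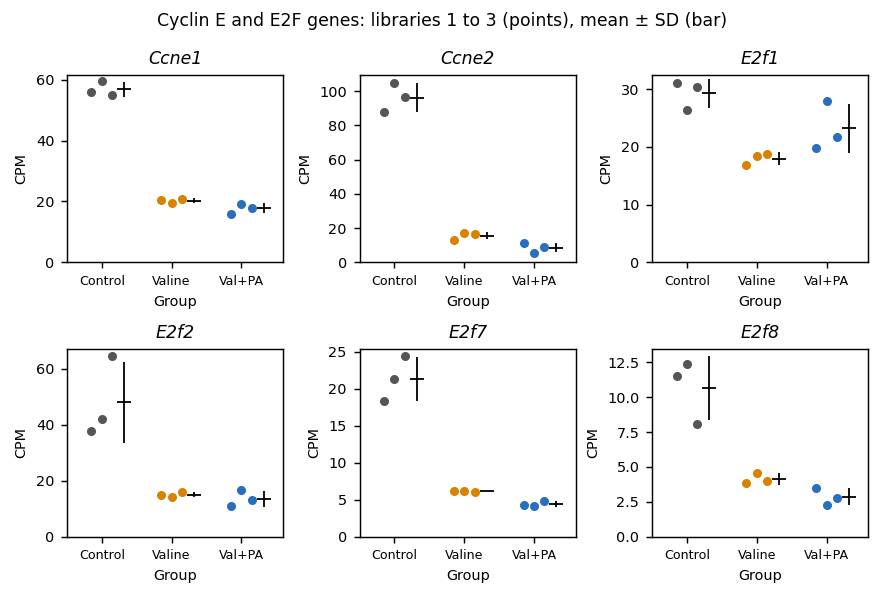
CPM (vertical axes, from 0) of the 2 cyclin E and 4 E2F genes in each library of Control, Valine and Val+PA (points, in the order of libraries 1 to 3), with mean and SD beside them. Ccne2 drops from 87.6 to 105 CPM in Control to 5.54 to 11.3 in Val+PA, while E2f1 in Val+PA reaches 27.9 and overlaps Control.

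The 4 genes of chromatin assembly and histone mRNA fell in both treated groups. Chaf1b, a subunit of the factor that places histones on new DNA, was at 60.3, 57.6 and 45.6 CPM in Control, 11.7, 15.6 and 14.4 in Valine wells and 10.2, 14.5 and 10.0 in Val+PA wells, and its log2 fold changes were -1.98 (SE 0.17) and -2.24 (SE 0.18). Slbp, which binds the stem-loop of histone mRNAs, was at 97, 105 and 109 CPM in Control, 36.3, 38.9 and 39.8 under valine alone and 32.4, 27 and 32.6 in Val+PA, with -1.43 (SE 0.11) and -1.76 (SE 0.11). For Slbp the 3 groups formed separate steps, while for Chaf1b the treated groups overlapped. Chaf1a, the large subunit beside Chaf1b, and Uhrf1, which guides maintenance DNA methylation, gave log2 fold changes of -1.76 and -1.58 in Valine and of -1.53 and -1.94 in Val+PA.

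All 4 genes of the checkpoint, turnover and repair role also fell in both groups. Exo1, an exonuclease of mismatch and break repair, was at 55.2, 53.4 and 43.4 CPM in Control, 12.9, 14.8 and 12.8 in the Valine group and 9.66, 10.5 and 11.4 in Val+PA, with log2 fold changes of -1.91 (SE 0.13) and -2.27 (SE 0.13). Brca1, which acts in homologous recombination and fork protection, was at 95.1, 95.9 and 76.9 CPM in Control, 40.6, 42.5 and 42.6 in Valine wells and 31.9, 26.5 and 27.9 in Val+PA wells, with -1.09 (SE 0.12) and -1.63 (SE 0.12). Both genes had 3 groups without overlap, in the order Control, Valine, Val+PA. Dtl, which directs the destruction of Cdt1 in S phase, and Clspn, which relays fork stress to the checkpoint kinase Chek1, fell, with log2 fold changes of -1.36 and -1.29 in Valine and of -1.73 and -1.81 in Val+PA.

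Val+PA and Valine were also compared directly, which sets the wells given palmitic acid against those given valine alone. Valine lasted 24 h in Val+PA and 36 h in Valine, so palmitic acid, the time in valine and the plate cannot be told apart here either. If palmitic acid was given during the valine in Val+PA, the total time in culture differed too and cannot be told apart from these. None of the 52 passed the test by edgeR in either direction, nor did any of the 18415 genes (0%). An unadjusted p below 0.05 was found for 22 of the 52, beside 2428 of all 18415 genes. With limma-voom the count among the 52 was also 0. DESeq2 called 6 of them lower (Ccne2, Mcm4, Rrm2, Brca1, Rrm1 and Pole), beside 0.434% of all genes called lower by it. Leaving out Control 3 and Val+PA 2 together, edgeR called 19 lower, beside 1.55% of all genes.

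In direction, 47 of 52 genes (90.4%) had a log2 fold change below 0 between Val+PA and Valine, beside 49.3% of all genes. All Val+PA libraries lay below all Valine libraries for 22 genes (42.3%), beside 12.0% of all genes, and above them for E2f1 alone, beside 12.6% of all genes, while the groups overlapped for the other 29. None of the 52 had a log2 fold change below -1, beside 1.09% of all genes. The median was -0.21, equal to 86.4% of the Valine level, beside 0.0044 over all genes. The summed level of the 52 genes in Val+PA was 83.5% of that in Valine. Its exact two-sided permutation p was 0.1, the smallest possible, which groups without overlap always give. These differences were not equal across the Val+PA libraries. Val+PA 1 was below every Valine library for 45 genes and Val+PA 3 for 42, but Val+PA 2, the library that stood apart, for 28, and Val+PA 2 was above every Valine library for 15 genes.

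The 5 genes with the smallest p in this comparison were Brca1, Rrm2, Ccne2, Rrm1 and Mcm4, whose levels in every library are given with their roles. All were lower in each Val+PA library than in each Valine library, as were 12.0% of all genes. These 5 were picked by p in the same comparison, so no conclusion is drawn from this. Log2 fold changes of Val+PA against Valine were -0.54 (SE 0.12) for Brca1 (adjusted p = 0.192) and -0.40 (SE 0.09) for Rrm2 (adjusted p = 0.192). For Ccne2 the value was -0.85 (SE 0.21, adjusted p = 0.21), for Rrm1 -0.37 (SE 0.09, adjusted p = 0.21) and for Mcm4 -0.47 (SE 0.12, adjusted p = 0.22). By role, the median ran from -0.11 for Okazaki fragment joining to -0.45 for checkpoint, turnover and repair. In that last role all 4 genes were lower without overlap, beside 12.0% of all genes and 42.3% of the genes described here. None of these 4 passed the test by edgeR (adjusted p = 0.192 to 0.333). The role was picked by its median, so no conclusion is drawn from this count. The 5 genes with a value above 0 were E2f1 at 0.37 (SE 0.14, adjusted p = 0.343), Cdt1 at 0.29, Chaf1a at 0.23, Pold1 at 0.04 and Rpa2 at 0.02. In all 5 of them Val+PA 2 was the highest of the Val+PA libraries.

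**Figure D5:**
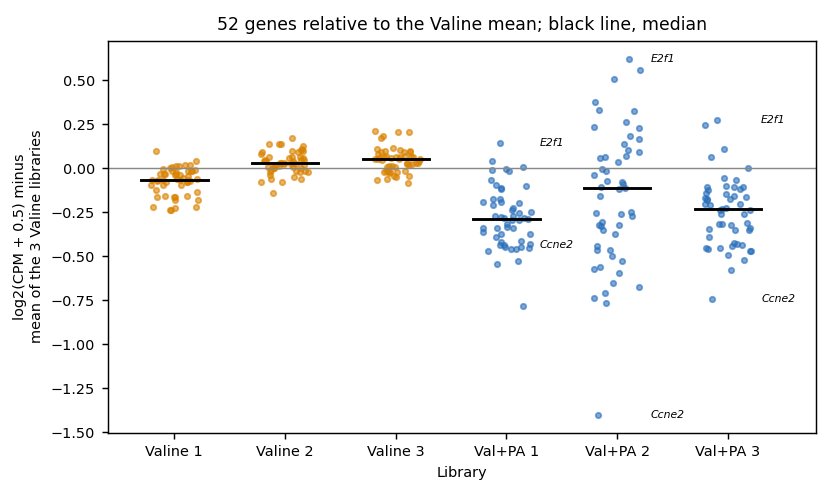
Level of each of the 52 genes (points) in the 6 treated libraries (horizontal axis), as log2(CPM + 0.5) minus the mean of the 3 Valine libraries (vertical axis); black lines are medians over genes. The medians of Val+PA 1, 2 and 3 are -0.29, -0.11 and -0.24, and the points of Val+PA 2 spread the widest.

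Other genes of the same pathways were read from 4 lists, whose counts stand beside 21.1% of all tested genes called lower and 20.8% called higher in Valine, and 18.8% and 20.4% in Val+PA. Of 39 other replication subunits and factors, 29 fell and 1 rose (Rrm2b) in Valine, and 30 fell and 3 rose (Rrm2b, Tk2 and Rnaseh2c) in Val+PA. Without Val+PA 2, the number that rose in Valine was 3. The largest fall was that of Dna2, a nuclease and helicase of flap processing, at 28.5, 30.4 and 28 CPM in Control, 3.86, 4.83 and 4.19 under valine alone and 2.85, 3.27 and 3.77 in Val+PA, with log2 fold changes of -2.75 (SE 0.14) and -3.14 (SE 0.15). Of 12 genes of replication-coupled chromatin and the CRL4 ligase, 8 fell and none rose in Valine, led by the histone chaperone Asf1b at -1.70 (SE 0.16), and in Val+PA 8 fell and Cul4a rose by 0.28 (SE 0.10). Of 14 checkpoint and fork repair genes, 10 fell in Valine and 11 in Val+PA and none rose. Over the 4 lists, 59 of 87 genes fell and 6 rose in Valine, with a median log2 fold change of -0.66, and none was called between Val+PA and Valine.

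The G1/S control list was mixed, with 12 of 22 genes lower and 5 higher in each treated group against Control. Its share called higher was near that of all tested genes, 20.8% in Valine and 20.4% in Val+PA, so the rises are given as values of single genes. Mybl2, a factor of the late cell cycle program, fell most, from 35.1, 34.7 and 31.1 CPM in Control to 6.06, 6.4 and 6.95 in the Valine group and 5.37, 6.47 and 3.83 in Val+PA, with log2 fold changes of -2.38 (SE 0.17) and -2.69 (SE 0.17). Cdk2, the partner kinase of cyclin E, fell, with log2 fold changes of -1.12 in Valine and -1.21 in Val+PA. The 5 genes that rose in Valine were Cdkn1c and Cdkn1b, which encode the inhibitors p57 and p27 of cyclin-dependent kinases, Ccnd2, a cyclin D, Tfdp2, a partner of E2F, and Rbl2, the pocket protein p130. Cdkn1c had the largest rise, at 1.44 (SE 0.39, adjusted p = 0.0114), on low levels of 0.481, 0.273 and 0.564 CPM in Control and 1.2, 1.16 and 1.17 in Valine. Cdkn1b went from 56.3, 63.7 and 57.2 CPM in Control to 108, 111 and 108 in Valine wells and 108, 73.9 and 99.1 in Val+PA wells, with Val+PA 2 the lowest treated library, and rose by 0.88 (SE 0.13) and 0.67 (SE 0.13). Among the cyclins D, Ccnd1 and Ccnd2 moved in opposite directions, by -1.16 (SE 0.14) and 0.78 (SE 0.09) in Valine. Ccnd3, also in this list, was not among the 5 that rose, and its values are not given here. The number called higher in this list in Valine ranged from 3, at an adjusted p below 0.01, to 8, without Control 3 and Val+PA 2.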

How the data were processed

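RNA was measured in 9 libraries, 3 per group, grouped by their titles. The deposited count table holds whole-number counts per gene, not normalized, and the authors' second table holds a normalized signal, which was tested on the values: for 9228 genes with enough reads, 100% of values lay within 1% of a gene factor times a library factor, and 99.1% of gene factors lay within 5% of 1 over exon length. The submitters' processing notes name HISAT2, featureCounts, DESeq2 and GRCm38, while versions, annotation release and strand setting were not given in the sources used here. Labels and protocols describe strand-specific libraries of total RNA. The Val+PA columns carry codes shortened from those in the titles and were matched by them.

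Symbols and coordinates came from GENCODE M21 on GRCm38, which named 52147 of 53700 IDs (97.1%). Counts were filtered with filterByExpr, scaled by TMM and fitted with edgeR 4.0.16 (quasi-likelihood) in R 4.3.3, all 9 libraries in 1 fit with 6 residual degrees of freedom and no covariate. The 3 two-sided comparisons were adjusted by Benjamini-Hochberg over 18415 genes at 0.05. SE was computed as the size of the log2 fold change over the square root of F. Levels are CPM after TMM scaling. With 3 libraries a group, the smallest exact permutation p is 0.1. The method was tested on simulated data. No libraries were alike within sampling noise. Alternatives were DESeq2 1.42.0, limma-voom (limma 3.58.1), other scalings, filters, units and thresholds, a replicate block, the 2 groups alone and left-out libraries.

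The members, gene lists and markers were chosen with earlier results of these data known. Values in every library are given, per role, for the gene with the largest and the smallest change in Valine against Control, for any gene not called there, and for the 5 smallest p between Val+PA and Valine. In each pathway list the called gene with the largest rise and the largest fall is named, except for 1 that is not reported here. Per-library values of Cdt1, Ccne1 and E2f7, and the naming of Cdk2, Cdkn1b, Ccnd1, Ccnd2, Tfdp2, Rbl2, Tk2, Rnaseh2c and Cul4a, are not covered by this rule and were decided on with the values in view. Promoter windows were from RefSeq, the first listed per gene.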

Additional observations from a re-analysis of the deposited data

How the results depend on the processing

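The number of the 52 genes called lower in Valine against Control was 51 under all 22 alternatives, including each left-out library, and that in Val+PA against Control was 50 to 52. None was called higher in any comparison. The median log2 fold change in Valine against Control was -1.31 with upper-quartile scaling, -1.29 with library size alone, -1.22 and -1.30 with the deposited signal plus 1 and plus 0.1, and -1.40 to -1.31 with 1 library left out. In Val+PA against Control it was -1.47 with the signal plus 1 and -1.69 to -1.61 with 1 library left out.

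Between Val+PA and Valine, genes called lower numbered 6 with DESeq2, 5 without a low-count filter and 19 without Control 3 and Val+PA 2. Of all genes, 0.434%, 0.867% and 1.55% were called lower in these settings. With any single library left out and under the other alternatives, the number was 0. The median was -0.27 without Control 3 and Val+PA 2, and -0.27 to -0.19 with 1 library left out. Summed levels with 1 library left out were 36.4% to 38.3%, 30.2% to 31.4% and 80.8% to 85.0% for Valine and Val+PA against Control and Val+PA against Valine. The log2 change of the Ccne2 to Ccne1 ratio ran from -1.25 to -1.04, -2.15 to -1.50 and -0.998 to -0.35. No fold change of the 52 genes against Control turned direction under these alternatives. Between Val+PA and Valine only Brca1, Rrm2, Ccne2, Rrm1, Mcm4 and E2f1 were followed, and none of these turned. The remaining named fold changes, including those of genes outside the 52, were not followed. The other replication subunits called higher in Valine numbered 1 to 3. With the shorter promoter window an E2F match was found in 31.0% of the 42 genes (1.26% of all windows, 1.95% of tested genes outside the 52) and CCAAT in 52.4% (24.0% and 26.2%), while TTTGAA, at 9.52% (8.08% and 4.49%), went from below to above the share of all windows.

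Same-numbered libraries of different groups correlated from -0.41 to 0.24 in their deviations from the group means. Differently numbered libraries of different groups correlated from -0.46 to 0.44. Replicate numbers thus showed no clear pairing of the libraries, which does not exclude one. With the replicate number as a block, 51, 50 and 0 genes were called lower in the 3 comparisons, with medians of -1.36, -1.64 and -0.23. The depth of 1 count per 0.0271 to 0.0403 CPM limits the lowest genes, Fen1 and Dscc1.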
